A study of Mus musculus with 18 samples.

Results

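The 4 genes described here, Selplg, Gcnt1, Fut7 and St3gal4, encode a selectin ligand and 3 of the enzymes that build its binding glycan. They were taken by symbol from a deposited count table of 37991 genes, and all 4 passed the filter that left 12445 genes. They were selected on their normalized levels across the 6 groups, so these levels are given as a description, with no test. RNA was sequenced from 18 libraries of 500 regulatory T cells (TR) each. The cells came from 3 littermate C57BL/6 mice, numbered 84, 86 and 87, with reporters for Id3 (GFP) and for Foxp3 (mRFP). Every group therefore shares strain, both reporters and the 3 animals, and each group holds 1 library per mouse.

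From spleen and from peripheral lymph nodes (LN) of each mouse, 3 populations of CD4+ cells were sorted by flow cytometry on CD44, CD62L and both reporters. Central TR that carry the Id3 reporter were gated as CD62Lhi and CD44lo (Id3+ cTR). Effector TR with the Id3 reporter were CD62Llo and CD44hi (Id3+ eTR). The remaining population is named effector TR without the Id3 reporter (Id3- eTR), and its label gives no CD44 or CD62L gate. Id3 encodes an inhibitor of E proteins, and Foxp3 the lineage factor of TR. The comparisons ask how the populations differ in each tissue and how each population differs between the tissues. They share libraries: both eTR populations of a tissue are set against the same 3 cTR libraries.

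Selectins are adhesion proteins of endothelium, platelets and leukocytes that let a blood cell roll along a vessel wall. PSGL-1, the product of Selplg, is a mucin-like protein on leukocytes that P-selectin binds when its O-glycans carry the right ends. Gcnt1 adds the core 2 branch to an O-glycan, St3gal4 adds sialic acid to the end of a chain, and Fut7 adds the fucose that completes sialyl Lewis x. In activated T cells the enzymes, rather than the protein backbone, are known as the regulated step.

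Promoter stretches are shown for Gcnt1 and Fut7, since both had their highest group mean in LN Id3- eTR and E boxes are the letters that E proteins bind. RefSeq (GRCm38.p6) gave starts for 3 of the 4 genes, with 6 windows of 250 bases upstream of a start. Capitals mark each E box, CANNTG, searched on both strands; CAGGTG, which reads CACCTG on the other strand, was counted as a subset of it. The Gcnt1 windows lie on the minus strand at chr19:17372845-17373094, chr19:17356668-17356917 and chr19:17339506-17339755. The Fut7 window lies on the plus strand at chr2:25422992-25423241.
Gcnt1, start 1: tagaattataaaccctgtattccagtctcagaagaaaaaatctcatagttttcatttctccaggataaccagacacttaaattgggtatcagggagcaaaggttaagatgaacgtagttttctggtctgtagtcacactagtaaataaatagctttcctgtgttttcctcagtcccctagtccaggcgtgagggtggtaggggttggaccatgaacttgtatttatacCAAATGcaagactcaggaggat
Gcnt1, start 2: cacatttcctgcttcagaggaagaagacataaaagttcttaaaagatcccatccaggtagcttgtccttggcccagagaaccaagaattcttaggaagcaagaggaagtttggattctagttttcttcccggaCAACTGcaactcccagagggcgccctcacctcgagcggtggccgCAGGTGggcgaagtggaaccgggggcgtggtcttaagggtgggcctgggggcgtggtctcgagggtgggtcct
Gcnt1, start 3: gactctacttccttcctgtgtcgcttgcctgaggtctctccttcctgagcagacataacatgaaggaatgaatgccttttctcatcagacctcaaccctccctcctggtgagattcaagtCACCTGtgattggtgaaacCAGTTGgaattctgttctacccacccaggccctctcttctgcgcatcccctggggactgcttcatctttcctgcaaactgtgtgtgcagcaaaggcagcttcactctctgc
Fut7, start 1: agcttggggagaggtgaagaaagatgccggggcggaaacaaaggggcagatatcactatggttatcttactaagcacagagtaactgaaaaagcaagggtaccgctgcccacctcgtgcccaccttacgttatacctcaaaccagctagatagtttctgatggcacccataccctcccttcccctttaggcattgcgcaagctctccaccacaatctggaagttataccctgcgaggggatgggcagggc
The Gcnt1 windows held 1, 2 and 2 E boxes in this order, and the last 2 each held 1 CAGGTG. Among all 32851 windows of the table, 66.2% held an E box and 17.2% held CAGGTG. Neither Fut7 window held an E box, nor did the St3gal4 window on the minus strand at chr9:35116865-35117114. None of the 6 windows held the T-box half-site GGTGTGA, found in 3.33% of all windows, or the AP-1 letters TGANTCA, found in 6.75%. The St3gal4 window held 25 CpG and 72.8% G and C, against medians of 6 and 52.4% over all windows. These are matches of letters only.

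The libraries held 1600782 to 3153325 counts and detected 13701 to 15045 genes. Levels are given as CPM, counts scaled to the size of the library by TMM. Foxp3, which defines TR, stood at 237 to 374 CPM in all 18 libraries. S100a8, S100a9, Ncr1, Cdh5 and Tek, which define neutrophils, NK cells and endothelium, were at 0 in all 18, and Kdr of endothelium in 16. Pecam1, of the endothelial list but also used by T cells, stood at 62.7 to 345 CPM. Of the myeloid list, Lyz2 reached 201 CPM and Cst3 stood at 121 to 228 CPM. The 5 B cell markers summed to 55.3 to 201 CPM and the 4 CD8 T and NK cell markers to 33.7 to 107 CPM per library. Among libraries of 1 group, 3 stand apart. Spleen Id3+ eTR of mouse 84 differed from its partners by 22.2 and 22.3 times the counting variance, where the other pairs within groups differed by at most 8.07 times. Spleen Id3+ cTR of mice 84 and 87 had the lowest totals, 1600782 and 1684461 counts. Leaving these 3 libraries out leaves spleen Id3+ cTR with 1 library. Printed log2 differences of the 4 genes that then moved by over 0.2 are given both ways.

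Selplg, the backbone, was abundant in every population and varied little. In spleen Id3+ cTR it stood at 868, 723 and 913 CPM in mice 84, 86 and 87. In spleen Id3+ eTR it stood at 556, 632 and 598 CPM, and in spleen Id3- eTR at 628, 744 and 606 CPM. The highest values of the series were those of spleen Id3+ cTR in mice 84 and 87, while mouse 86 of that group lay under spleen Id3- eTR of the same animal. In LN, Selplg stood at 677, 662 and 674 CPM in Id3+ cTR, at 634, 561 and 548 CPM in Id3+ eTR, and at 700.0, 672 and 690 CPM in Id3- eTR. The LN Id3+ eTR libraries lay under those of both other LN populations, with no overlap. Spleen Id3+ eTR differed from spleen Id3+ cTR by -0.49 ± 0.10 on the log2 scale (n = 3 per group), which came to -0.23 without the 3 libraries. Each SE of a log2 difference comes from the fit of all 18 libraries, not from the spread of the groups compared alone. In LN the same difference was -0.21 ± 0.10, and Id3- eTR differed from Id3+ eTR by 0.24 ± 0.10. Between tissues, LN Id3+ cTR differed from spleen Id3+ cTR by -0.31 ± 0.10, or -0.11 without the 3 libraries. The group means of Selplg spanned 0.52 on the log2 scale, and 32.01% of all tested genes spanned less.

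**Figure D1:**
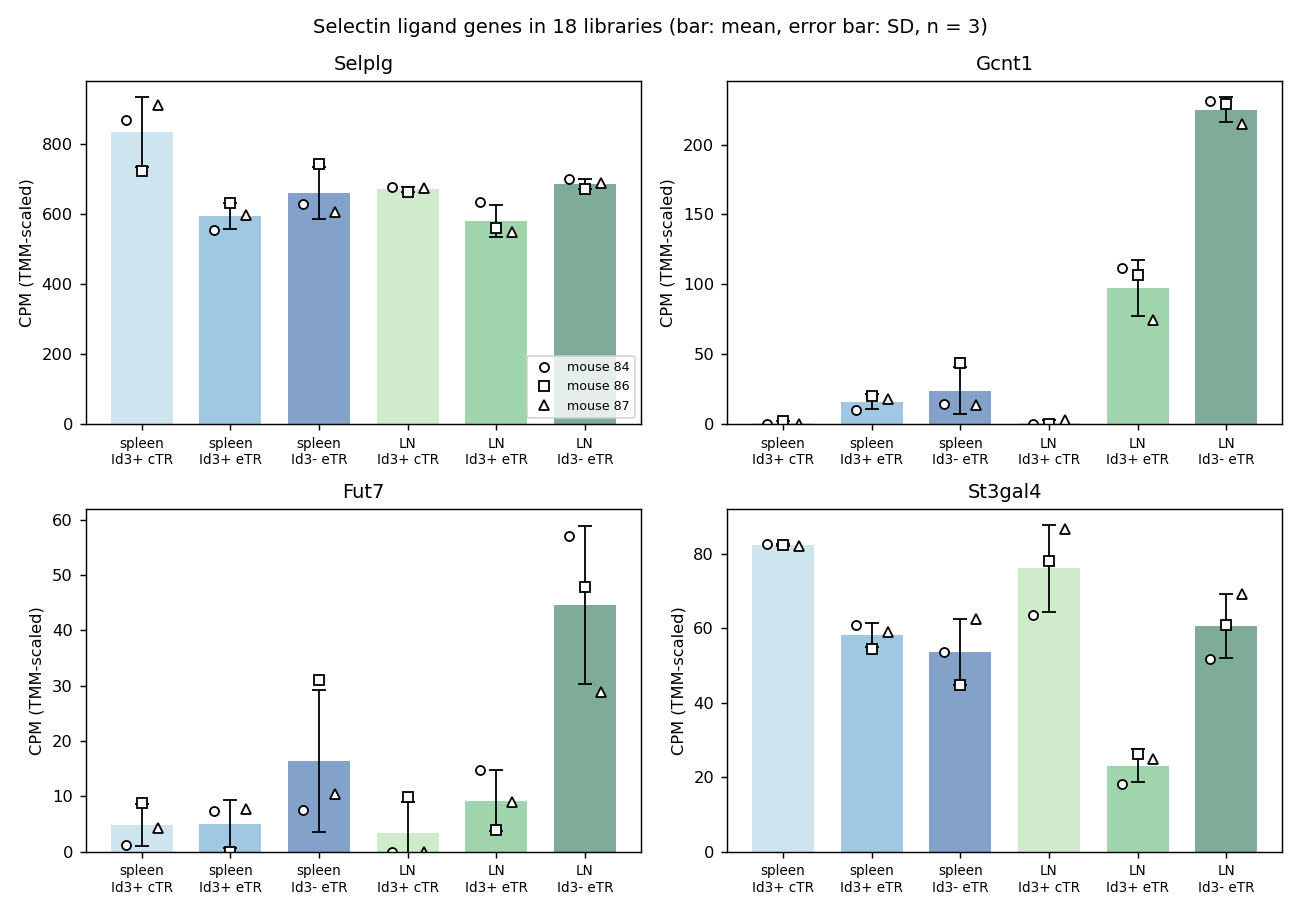
Level of each gene in CPM (y axis) by tissue and population (x axis); bars are means of 3 mice, error bars SD, and each point is 1 library with its mouse as the symbol. Selplg is near level, Gcnt1 and Fut7 have their highest mean in LN Id3- eTR (225 and 44.6 CPM), and St3gal4 has its lowest in LN Id3+ eTR (23.1 CPM).

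Gcnt1, the branching enzyme, was close to absent in central cells and present in effector cells of both tissues, at far higher levels in LN. In spleen Id3+ cTR it had 0, 5 and 0 counts in mice 84, 86 and 87, and in LN Id3+ cTR 1, 0 and 8 counts. In single libraries a count of 0 allows up to 1.95 CPM in spleen Id3+ cTR of mouse 84, 1.85 CPM in that of mouse 87 and 0.992 CPM in LN Id3+ cTR of mouse 86. All 5 counts of the spleen group thus came from mouse 86, and 8 of the 9 counts of the LN group from mouse 87.
In spleen Id3+ eTR, Gcnt1 stood at 9.72, 19.9 and 18.3 CPM, and in spleen Id3- eTR at 14.4, 43.3 and 13.9 CPM. These 2 spleen populations overlapped, and mouse 86 was the highest of each. In LN Id3+ eTR it stood at 111, 106 and 74.1 CPM. In LN Id3- eTR it stood at 231, 229 and 215 CPM, above every other library of the series. The order of group means was LN Id3- eTR, LN Id3+ eTR, spleen Id3- eTR, spleen Id3+ eTR, LN Id3+ cTR and spleen Id3+ cTR. Neighbours in this order overlapped only between the 2 spleen eTR populations and between the 2 cTR populations.

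Against the cTR of its own tissue, Gcnt1 was higher in both eTR populations in 3 of 3 mice. Pooled over mice, the ratio of CPM was 17.7 (95% interval 7.37 to 55.3) for spleen Id3+ eTR and 25.03 (10.5 to 78.1) for spleen Id3- eTR. In LN it was 89.9 (47.1 to 197) for Id3+ eTR and 212 (111 to 464) for Id3- eTR. These exact intervals cover counting error only. The fitted log2 differences were 4.13 ± 0.84 and 4.69 ± 0.82 in spleen, and 6.45 ± 0.69 and 7.66 ± 0.70 in LN (SE, n = 3). Without the 3 libraries the spleen values were 3.23 and 3.51.
Between the eTR populations, Gcnt1 was 2.31-fold higher in LN Id3- eTR than in LN Id3+ eTR, a log2 difference of 1.21 ± 0.45 seen in 3 of 3 mice. In spleen the same difference was 0.56 ± 0.51, positive in 2 of 3 mice. It was 0.29 without the 3 libraries and -0.17 without spleen Id3- eTR of mouse 86. Between tissues, the LN mean was 6.09-fold that of spleen in Id3+ eTR (log2 2.61 ± 0.50, or 2.34 without the 3 libraries) and 9.42-fold in Id3- eTR (log2 3.26 ± 0.50), each higher in 3 of 3 mice. The group means of Gcnt1 spanned 7.55 on the log2 scale, more than 99.9% of tested genes. The low end, spleen Id3+ cTR with 5 counts, is set largely by the prior count of 2 added before taking logs.

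Fut7, the fucosyltransferase, was low in most libraries and had its highest mean in LN Id3- eTR. There it stood at 57.0, 47.9 and 28.9 CPM, from 145, 131 and 81 counts. In LN Id3+ eTR it stood at 14.8, 3.86 and 9.0 CPM. In LN Id3+ cTR, Fut7 had 0, 30 and 0 counts, so 1 mouse gave every count of that group, where 0 allows 1.14 and 1.07 CPM. The LN Id3- eTR libraries lay above all 6 others of LN.
In spleen, Fut7 stood at 1.30, 8.79 and 4.32 CPM in Id3+ cTR, at 7.37, 0 and 7.77 CPM in Id3+ eTR, and at 7.55, 31.1 and 10.4 CPM in Id3- eTR. The 0 of spleen Id3+ eTR in mouse 86 allows up to 1.22 CPM. All 3 spleen populations overlapped, and mouse 86 of Id3- eTR reached above the lowest LN Id3- eTR library.

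In LN, Fut7 was 4.83-fold higher in Id3- eTR than in Id3+ eTR, a log2 difference of 2.28 ± 1.09 (SE, n = 3) seen in 3 of 3 mice. Against LN Id3+ cTR the log2 difference was 3.70 ± 1.18, in 3 of 3 mice; without LN Id3+ cTR of mouse 86 the group is at 0 and its fitted value, 9.80, is no bound. LN Id3+ eTR differed from LN Id3+ cTR by 1.42 ± 1.15, higher in 2 of 3 mice. In spleen, Fut7 in Id3- eTR differed by 1.68 ± 1.14 from Id3+ cTR (0.88 without the 3 libraries) and by 1.66 ± 1.11 from Id3+ eTR (2.03 without them), each higher in 3 of 3 mice. Without spleen Id3- eTR of mouse 86 alone, these values were 0.84 and 0.81. Paired by mouse, the log2 difference from spleen Id3+ eTR was 0.03, 5.33 and 0.39 in mice 84, 86 and 87. The value of mouse 86 rests on 0 counts in Id3+ eTR. Spleen Id3+ eTR differed from Id3+ cTR by 0.02 ± 1.19, a value with no settled sign: it was -1.16 without the 3 libraries, -0.87 with limma-voom and 0.86 without spleen Id3+ cTR of mouse 86. LN exceeded spleen by 1.46 ± 1.05 in Id3- eTR and by 0.84 ± 1.12 in Id3+ eTR (1.21 without the 3 libraries), each in 3 of 3 mice with overlap. Fut7 had 30 to 357 counts per group. With only the LN eTR groups fitted, the SE of their difference was 0.49 in place of 1.09. The cause of the wide errors was not tested.

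St3gal4, the sialyltransferase, had its lowest mean in LN Id3+ eTR, and its highest in central cells. In LN Id3+ eTR it stood at 18.2, 26.3 and 24.9 CPM, under all other 15 libraries. In LN Id3+ cTR, St3gal4 stood at 63.6, 78.05 and 86.6 CPM, and in LN Id3- eTR at 51.9, 61.0 and 69.2 CPM. In spleen it stood at 82.6, 82.3 and 82.0 CPM in Id3+ cTR, at 61.0, 54.5 and 59.1 CPM in Id3+ eTR, and at 53.6, 44.7 and 62.6 CPM in Id3- eTR. Spleen Id3+ cTR lay above both spleen eTR populations, which overlapped.
The mean of St3gal4 in LN Id3+ eTR was 3.29-fold lower than in LN Id3+ cTR, a log2 difference of -1.71 ± 0.20 (SE, n = 3). It was 2.62-fold higher in LN Id3- eTR than in LN Id3+ eTR, by 1.38 ± 0.20. LN Id3+ eTR was 2.52-fold lower than spleen Id3+ eTR, by -1.32 ± 0.20. Each of these held in 3 of 3 mice. The difference between the eTR populations was 1.5 ± 0.27 larger in LN than in spleen, where it was -0.12 ± 0.19. In spleen, Id3+ eTR and Id3- eTR differed from Id3+ cTR by -0.50 ± 0.19 and -0.61 ± 0.19.
Exons of St3gal4 share 412 bases with 4930581F22Rik, a transcript of the opposite strand. No source used here says whether counting used strand, so reads of the shared bases cannot be assigned. The antisense gene had group means of 11.9 CPM in LN Id3+ eTR and 17.97 to 22.2 CPM in the other 5 groups.

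**Figure D2:**
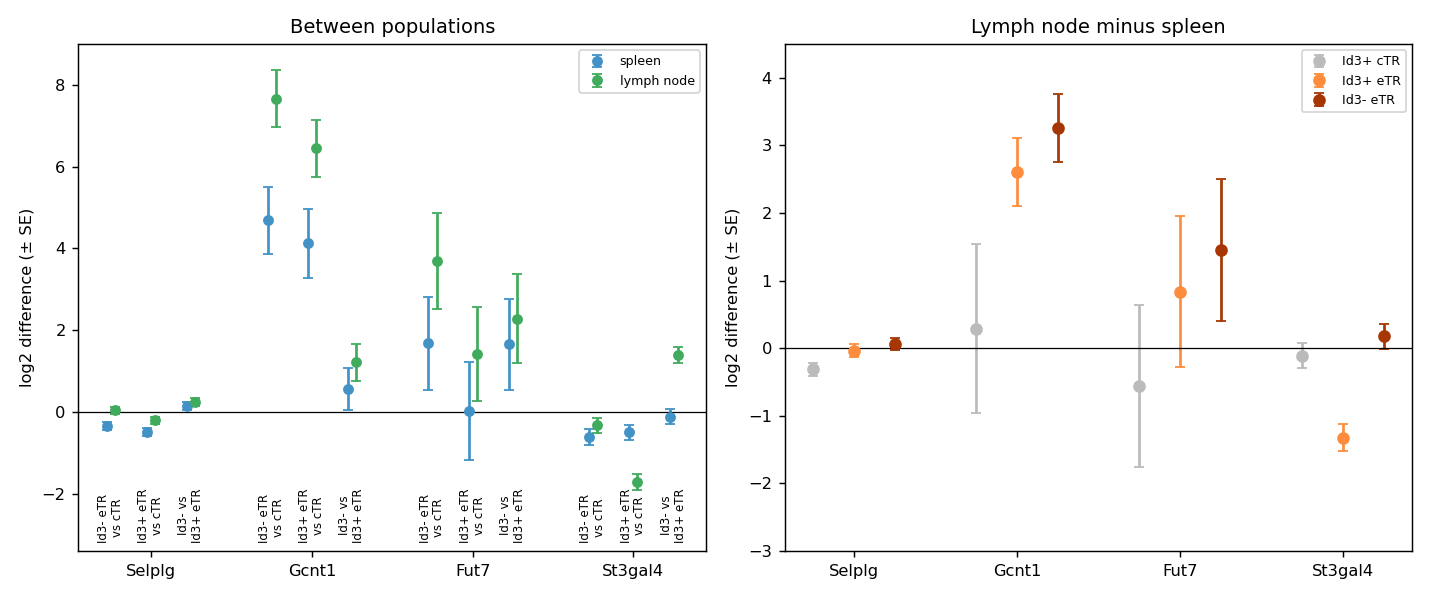
Fitted log2 difference (y axis, error bars SE) for each gene (x axis), between populations within each tissue (left) and between LN and spleen within each population (right). Gcnt1 lies far above 0 for both eTR populations against cTR, and St3gal4 of Id3+ eTR lies under 0 in LN (-1.71) and between tissues (-1.32).

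The groups whose libraries did not overlap were counted for each comparison. In LN, Id3- eTR lay above Id3+ eTR without overlap for 4 of 4 genes, where 11.3% of all tested genes did so. In LN, Id3- eTR lay above Id3+ cTR for 2 of 4, Gcnt1 and Fut7, where 17.8% of tested genes did, and under it for 0 of 4 (background 16.1%). Id3+ eTR lay above Id3+ cTR in LN for Gcnt1 (background 13.5%) and under it for Selplg and St3gal4 (background 11.3%). In spleen the same held for Gcnt1 (background 10.8%) and for Selplg and St3gal4 (background 9.07%). Spleen Id3- eTR lay above Id3+ cTR for Gcnt1 (background 16.4%) and under it for St3gal4 (background 14.1%). The spleen eTR populations overlapped for all 4 genes, where 9.79% of tested genes were higher and 8.76% lower without overlap. Between tissues, LN lay above spleen for Gcnt1 in Id3+ eTR (background 7.14%) and in Id3- eTR (background 7.80%). LN lay under spleen for St3gal4 in Id3+ eTR (background 6.63%) and for Selplg in Id3+ cTR (background 7.38%). None of the 4 lay above spleen without overlap in LN Id3+ cTR (background 7.18%), or under it in LN Id3- eTR (background 7.10%). These contrasts chose the genes, so nothing is read from the counts.

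Per kilobase of exon, the enzymes could be set against the backbone within each library. On this scale Gcnt1 stood at 24.3% ± 1.12 of Selplg in LN Id3- eTR (SD, n = 3) and at 12.4% ± 2.09 in LN Id3+ eTR. In spleen it stood at 2.57% ± 1.51 in Id3- eTR and 1.97% ± 0.583 in Id3+ eTR, and in both cTR groups at 0.118% or less. Fut7 per kilobase stood at 11.8% ± 3.73 of Selplg in LN Id3- eTR and at 4.29% ± 2.88 in spleen Id3- eTR. The other 4 groups had Fut7 means of 0.906% to 2.82%. St3gal4 per kilobase stood at 12.1% to 16.6% of Selplg in 5 groups and at 5.89% ± 1.48 in LN Id3+ eTR. In both LN eTR groups Gcnt1 per kilobase exceeded St3gal4 in each of 3 mice, and in the other 4 groups it did so in none.
C1galt1 makes the core 1 chain that Gcnt1 branches, and St3gal1 adds a sialic acid to the same core 1 chain. Per kilobase, Gcnt1 stood at 561% ± 42.6 of C1galt1 in LN Id3- eTR, 252% ± 43.0 in LN Id3+ eTR and 38.7% ± 11.6 in spleen Id3+ eTR. In spleen Id3- eTR it stood at 69.0% ± 49.8, from 37.4% to 126%. Against St3gal1 it stood at 688% ± 367 in LN Id3- eTR, 162% ± 60.6 in LN Id3+ eTR and 38.2% ± 16.8 in spleen Id3+ eTR. In spleen Id3- eTR the ratio to St3gal1 ran from 36.0% to 391%, with 1 mouse far above the others. In both cTR groups the means were 3.00% or less of either enzyme. These ratios compare transcripts, not enzyme activity.

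**Figure D3:**
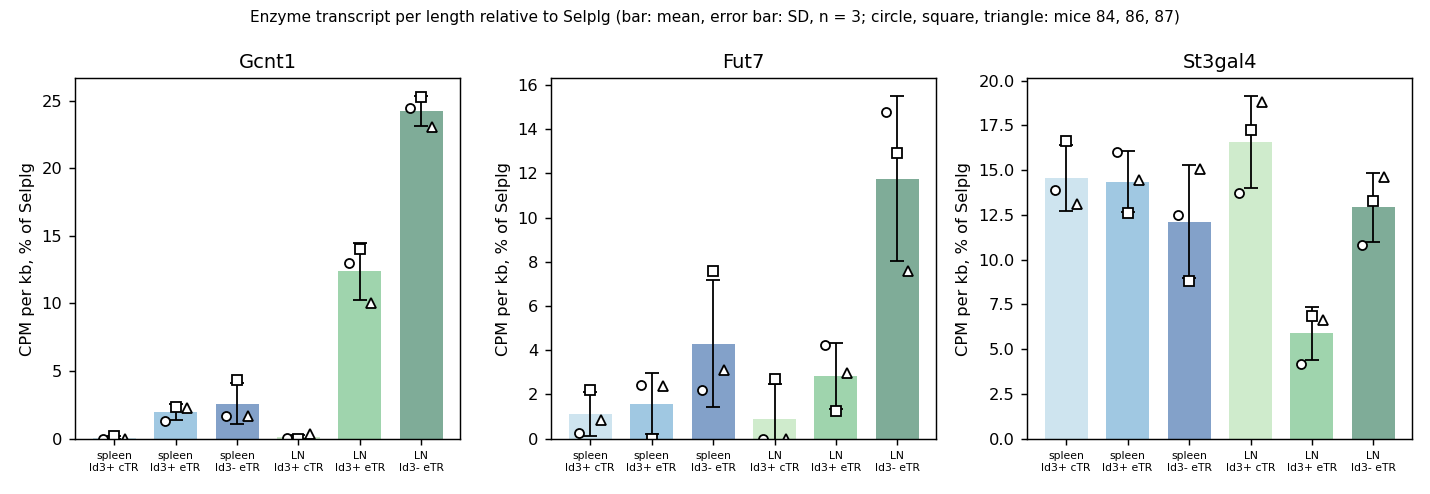
CPM per kilobase of exon of each enzyme gene as a percent of Selplg in the same library (y axis) by group (x axis); bars are means of 3 mice, error bars SD, points single libraries. Gcnt1 reaches 24.3% and Fut7 11.8% in LN Id3- eTR, while St3gal4 drops to 5.89% in LN Id3+ eTR.

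The genes with the most similar profile were sought among the 8015 tested genes whose log2 CPM averaged 4 or more. Likeness is the root-mean-square log2 difference between the 6 group means after centring each gene on its own mean. For Gcnt1 the nearest were Itgae (0.85), the alpha chain of the E-cadherin-binding integrin, Gpm6b (1.01) and Ttc39c (1.06). Itgae stood at 12.5, 66.4 and 143 CPM in spleen Id3+ cTR, Id3+ eTR and Id3- eTR, and at 23.1, 237 and 742 CPM in LN. For Fut7 the nearest were Scpep1 (0.41), Ahr (0.49), the aryl hydrocarbon receptor, and Snx9 (0.51). Fut7 had 30 to 357 counts per group, and its fitted differences had SEs of 1.05 to 1.20, wider than these distances. Its nearest genes are therefore uncertain. Ahr stood at 17.7, 31.1 and 70.9 CPM in spleen and at 12.6, 44.4 and 122 CPM in LN, in the same order. For St3gal4 they were Tec (0.19), a kinase of antigen receptor signalling, Pitpnc1 (0.21) and Tmem64 (0.22), and for Selplg they were Rap1b (0.03), Anapc10 (0.04) and Sos1 (0.04). Between the 4 genes themselves, Selplg and St3gal4 were nearest (0.48) and Gcnt1 and St3gal4 farthest (3.22), with Gcnt1 and Fut7 at 1.81.

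**Figure D4:**
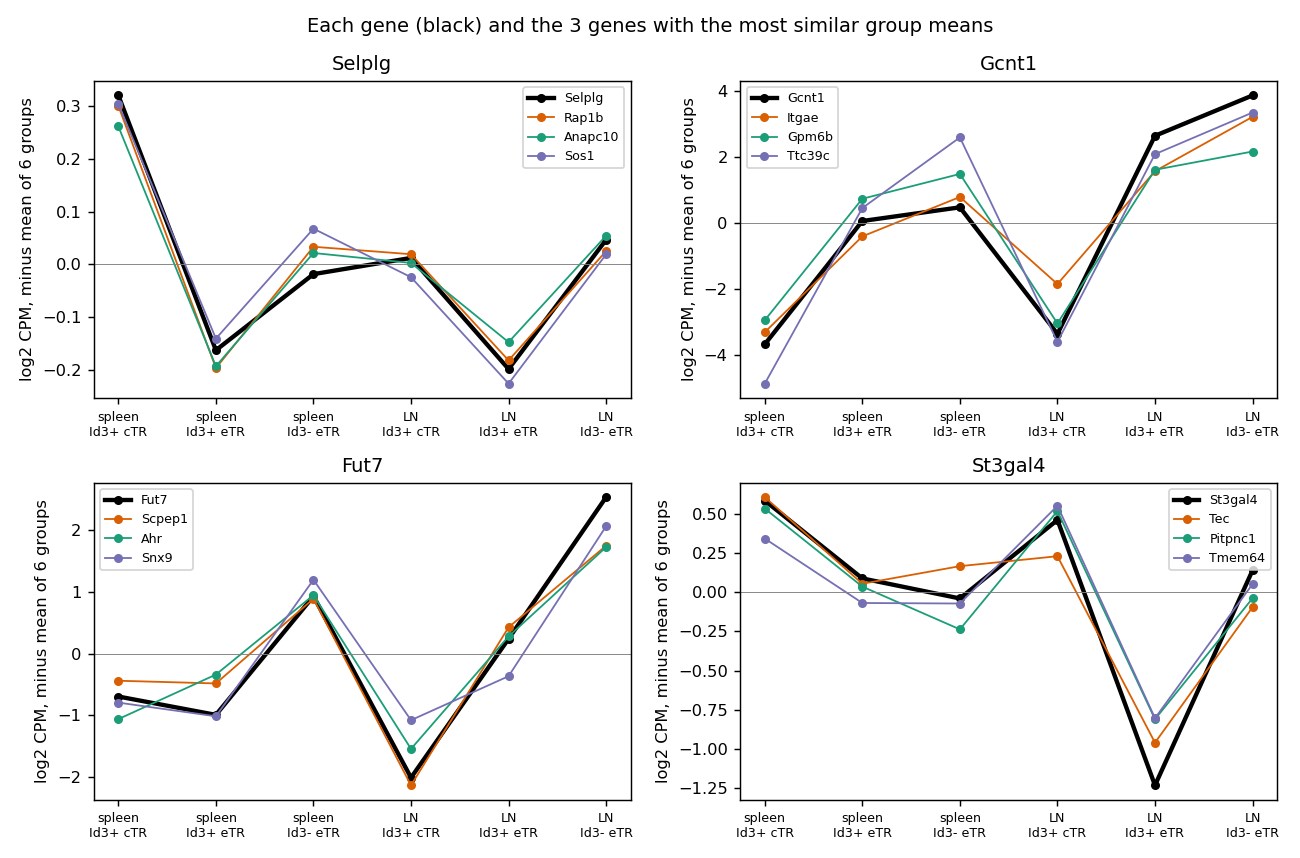
Group means of log2 CPM minus each gene's mean over the 6 groups (y axis) by group (x axis), for each gene in black and its 3 nearest genes in colour. Itgae follows Gcnt1 upwards into LN Id3- eTR, and Tec follows St3gal4 downwards in LN Id3+ eTR; the axes differ between panels.

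The other genes of the pathway were taken from 6 lists of 84 genes, of which 62 were tested by edgeR. The lists were chosen with earlier results of these data known, so their shares of calls are a description. In LN, Id3- eTR against Id3+ cTR gave 9 higher and 7 lower at an adjusted p under 0.05, where 8.26% and 4.68% of all tested genes were called. In spleen the same comparison gave 9 higher and 6 lower, where 7.17% and 5.09% were called. Their median log2 differences were 0.16 and 0.17, beside 0.00 over all tested genes. Id3+ eTR against Id3+ cTR gave 4 higher and 5 lower in LN (4.20% and 1.46% of all genes) and 3 higher and 0 lower in spleen (2.93% and 1.39%). Id3- eTR against Id3+ eTR gave 3 higher and 3 lower in LN (1.45% and 1.17%) and 1 higher and 4 lower in spleen (1.53% and 1.75%). Leaving out the 3 libraries that stand apart, the 15 calls of spleen Id3- eTR against Id3+ cTR came to 9, and the 3 of spleen Id3+ eTR against Id3+ cTR to 0. Those 3 calls came to 1 without Id3+ cTR of mouse 84 and to 6 without Id3+ eTR of mouse 86. The 9 calls of LN Id3+ eTR against Id3+ cTR came to 4 without LN Id3+ cTR of mouse 87. The 6 calls between the LN eTR populations came to 3 without Id3- eTR of mouse 86 or 87 or Id3+ eTR of mouse 87, and the 5 in spleen to 2 or 3 without any 1 of the Id3- eTR libraries. Each call named here went the same way in 3 of 3 mice. The calls include Cd44 in 4 of the 6 population comparisons, and CD44 was part of the sort.

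Of the 15 tested genes that make and lengthen O-glycan chains, 2 were called in spleen Id3- eTR against Id3+ cTR (1 higher, 1 lower) and 1 (lower) in each LN eTR population against LN Id3+ cTR, to be read against the shares of all tested genes given above. C1galt1 had group means of 37.0 to 44.0 CPM, with log2 differences of -0.26 ± 0.24 to 0.01 ± 0.24 against cTR. The other core 2 enzymes, Gcnt3 and Gcnt4, had 2 and 1 counts over all 18 libraries, and Gcnt2, which makes I branches, had 21. In this list Galnt10, which starts O-glycan chains, was lower in LN Id3- eTR than in Id3+ cTR by -2.03 ± 0.40 (adjusted p = 0.00235). It was also called lower in spleen (-1.65 ± 0.40, adjusted p = 0.0112), a call lost without spleen Id3- eTR of mouse 87. B4galt4, a galactosyltransferase, was higher in spleen Id3- eTR than in Id3+ cTR by 2.30 ± 0.53 (adjusted p = 0.0079), lost without the 3 libraries.

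Of 18 tested genes of sialic acid transfer and supply, 5 were called in LN Id3- eTR against Id3+ cTR. Of these, 2 were higher and 3 lower, where 8.26% and 4.68% of all tested genes were called. In spleen the same comparison gave 2 higher and 2 lower (7.17% and 5.09%). Spleen Id3+ eTR against Id3+ cTR gave 0 (2.93% and 1.39%), with 6 of the 18 at an unadjusted edgeR p under 0.05. In LN, Id3+ eTR against Id3+ cTR gave 1 higher and 2 lower (4.20% and 1.46%), with 10 at that unadjusted p. St8sia6, which adds a further sialic acid to sialylated O-glycans, stood at 343, 388 and 446 CPM in LN Id3+ cTR and at 73.9, 68.7 and 97.0 CPM in LN Id3- eTR. Its log2 difference was -2.30 ± 0.19 in LN (adjusted p = 3.79e-07) and -2.54 ± 0.20 in spleen (adjusted p = 1.87e-07). St8sia1, which makes gangliosides with paired sialic acids, was lower in the same comparisons by -2.52 ± 0.37 (adjusted p = 0.000143) and -2.23 ± 0.37 (adjusted p = 0.000499). St8sia4, a polysialyltransferase, was higher in LN Id3+ eTR than in Id3+ cTR by 0.73 ± 0.14 (adjusted p = 0.00446). St3gal6, which like St3gal4 can act in making selectin ligands, had means of 36.4, 13.7 and 13.5 CPM in LN Id3+ cTR, Id3+ eTR and Id3- eTR. Its differences of -1.41 ± 0.36 (adjusted p = 0.0260) and -1.43 ± 0.36 (adjusted p = 0.0133) were lost without LN Id3+ cTR of mouse 87, among other libraries. St3gal1, the competitor of Gcnt1 for the core 1 chain, was called in no comparison (means of 31.8 to 76.3 CPM).

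Among the fucose genes, Fut4, the other leukocyte enzyme of sialyl Lewis x, had 5 counts over 18 libraries, and Fut9 and Fut1 had 0. Of the 11 tested genes, Fut8, which adds the core fucose of N-glycans, was higher in LN Id3- eTR than in Id3+ cTR by 1.64 ± 0.21 (adjusted p = 4.39e-05). Among the 8 tested sulfation genes, Chst2, which sulfates sugars of selectin ligands, was nearly absent from cTR. It had 2 counts over spleen Id3+ cTR and 14 over LN Id3+ cTR. The ratio for spleen Id3- eTR was 138 (95% counting interval 37.9 to 1143) and for spleen Id3+ eTR 66.8 (18.2 to 555). In LN, Chst2 was higher by 4.31 ± 0.79 in Id3- eTR (adjusted p = 0.00114) and by 3.95 ± 0.79 in Id3+ eTR (adjusted p = 0.00515). Tpst2, which sulfates tyrosines such as those P-selectin needs on PSGL-1, was higher in LN Id3- eTR than in Id3+ eTR by 0.79 ± 0.15 (adjusted p = 0.00565). Chst10, which makes the HNK-1 epitope, was lower in LN Id3+ eTR than in Id3+ cTR by -1.36 ± 0.30 (adjusted p = 0.00948), lost without LN Id3+ eTR of mouse 86 or LN Id3+ cTR of mouse 87.

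Among the selectins and other backbones, 7 of 12 genes were tested. Cd44, which encodes CD44 of the gate, was higher in Id3- eTR than in Id3+ cTR in both tissues, by 1.92 ± 0.25 in LN. Id3+ cTR were sorted as CD44lo, so nothing is read from this difference. Lamp1, a lysosomal protein that can carry such glycans, was lower in LN Id3- eTR than in Id3+ cTR by -0.77 ± 0.11 (adjusted p = 0.00014). Spn, the mucin CD43, was higher in LN Id3- eTR than in LN Id3+ eTR by 0.96 ± 0.13 (adjusted p = 0.000214). It was named after its values were seen. Selp, P-selectin itself, had 51 counts over spleen Id3+ cTR and 0 over spleen Id3- eTR. That is at least 23.4-fold lower, with 3 counts over the group in place of 0. In LN, mice 84, 86 and 87 had 24, 8 and 15 Selp counts in Id3+ cTR. They had 5, 10 and 8 in Id3+ eTR and 0, 0 and 2 in Id3- eTR. The summed platelet and erythroid markers (5 genes) ran from 86.9 to 153 CPM in spleen Id3+ cTR. They ran from 9.72 to 73.04 CPM in spleen Id3+ eTR and from 27.3 to 52.5 CPM in spleen Id3- eTR. In LN the sums were 1.51 to 7.28 CPM in Id3+ cTR, 5.26 to 7.27 CPM in Id3+ eTR and 4.72 to 11.7 CPM in Id3- eTR. The 4 endothelial markers, nearly all Pecam1, summed to 282 to 345, 171 to 189.6 and 76.3 to 110.2 CPM in spleen Id3+ cTR, Id3+ eTR and Id3- eTR. In LN these populations had 201 to 292, 116 to 151 and 62.7 to 79.0 CPM. The part of either kind of cell in Selp or Selplg was not tested.

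Of 3 genes known to regulate these enzymes in T cells, Tbx21 (T-bet) rose in spleen Id3- eTR against Id3+ cTR by 6.03 ± 0.84 (adjusted p = 0.000112). Only 4 counts over spleen Id3+ cTR stand behind it, and the ratio of CPM was 70.2 (95% counting interval 27.2 to 259). Tbx21 stood at 58.6, 75.3 and 21.9 CPM in spleen Id3- eTR and at 9.04, 9.86 and 8.56 CPM in LN Id3- eTR. Between these 2 groups the means of Gcnt1 and Fut7 ran the other way. Within each tissue, mean Tbx21 rose from Id3+ cTR to Id3+ eTR to Id3- eTR, as did the mean of Gcnt1. The mean of Fut7 followed this order in LN. In spleen its first step, from 4.80 to 5.05 CPM, had no settled sign (log2 0.02 ± 1.19). Tbx21 means were 0.845, 9.41 and 52.0 CPM in spleen and 0.355, 2.23 and 9.15 CPM in LN. Its ratio for LN Id3- eTR against Id3+ cTR was 25.9 (95% counting interval 8.52 to 128), from 74 and 3 counts. The part of Tbx21 in the levels of either gene was not tested. Gata3 rose in LN Id3- eTR against Id3+ cTR by 0.80 ± 0.17 (adjusted p = 0.00378). It was also called higher in spleen Id3- eTR (mean 174 CPM) than in spleen Id3+ cTR (101 CPM), though not under every alternative. Stat4 was called in no comparison.

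**Figure D5:**
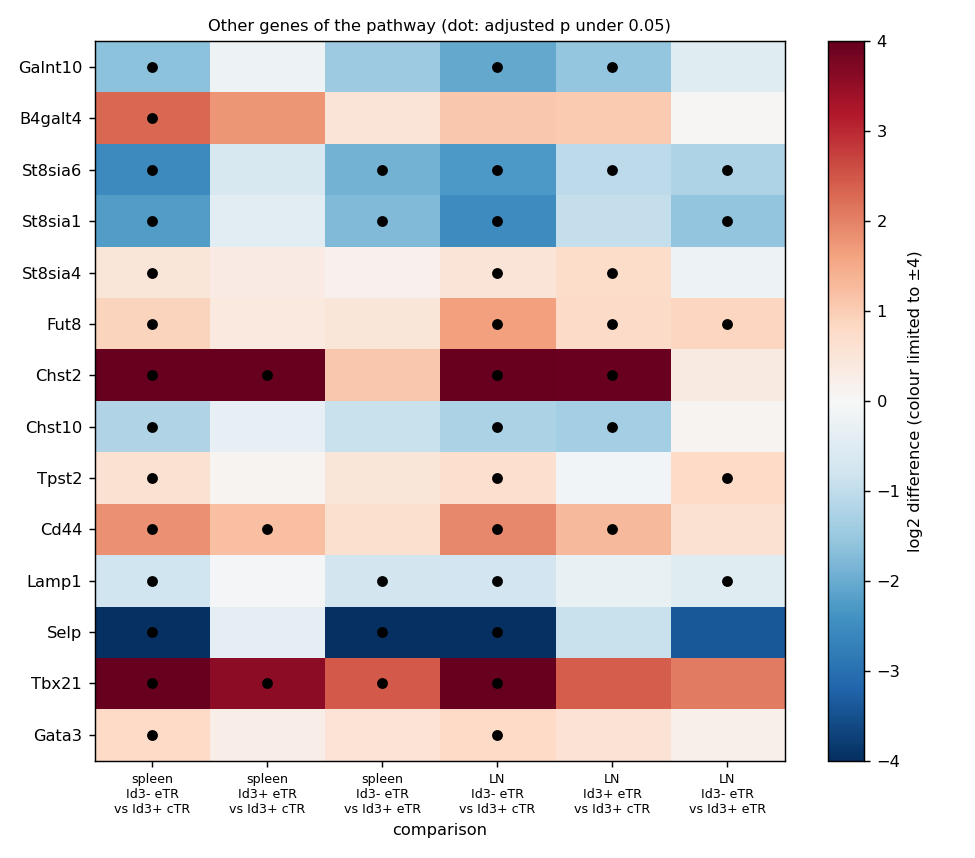
Fitted log2 difference (colour, limited to 4 in either direction) of 14 other pathway genes (y axis) in the 6 population comparisons (x axis); a dot marks an adjusted p under 0.05. Chst2 is called higher in all 4 comparisons with cTR, while St8sia6 is called lower in 5 of 6. In the remaining comparison, spleen Id3+ eTR against Id3+ cTR, St8sia6 was also lower (means of 217 and 341 CPM) but not called.

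Between tissues, pathway genes were rarely called. In Id3+ eTR, 2 were lower in LN than in spleen, where 0.289% of all genes were called: the GDP-fucose transporter gene Slc35c1 (-1.55 ± 0.31, adjusted p = 0.0464) and Spn (-0.63 ± 0.13, adjusted p = 0.0464). With the mouse as a block, edgeR called neither. In Id3- eTR, where 0.305% of all genes were called, edgeR called 0 pathway genes, with 12 at an unadjusted p under 0.05 and 2 called by DESeq2. In Id3+ cTR, where 0.00804% were called, it called 0, with 2 at an unadjusted p under 0.05 and 0 called by DESeq2. The tests of whether a population difference differed between tissues called 0 pathway genes in each of 3 comparisons, with 5, 6 and 7 at an unadjusted p under 0.05. DESeq2 called 0, 0 and 1 there. Of all tested genes, edgeR called 0.0241% in the comparison of Id3- eTR with Id3+ cTR and 0% in the others.

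Markers of other cells moved with some of these groups. The 10 myeloid and neutrophil markers summed to 140 to 160 CPM in LN Id3+ cTR, 212 to 436 CPM in LN Id3+ eTR and 317 to 357 CPM in LN Id3- eTR. In spleen they summed to 136 to 259, 143 to 239 and 225 to 286 CPM. Of these 10, S100a8 and S100a9 were at 0 in all 18 libraries and Cd14 in 15. Cst3 stood at 121 to 228 CPM. Lyz2 was at 0 in 2 libraries and reached 201 CPM in another. The highest values of Tyrobp, Fcer1g and Spi1 were 25.3, 20.4 and 18.9 CPM, and those of Csf1r and Itgam 7.71 and 3.20 CPM. Myeloid cells also use Gcnt1 and Fut7, and the part of such cells in the values of both genes was not tested. Fewer cells that use a gene and less RNA of it per cell cannot be told apart in these bulk libraries.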

How the data were processed

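The authors deposited whole-number counts per gene for 18 libraries, and a table of normalized signal for 14011 genes. The submitters' processing notes name HTSeq 0.4.1 beside TopHat, Bowtie, SAMtools, Picard and FastQC. The strand setting and the genome build are not given in the sources used here. In the deposited signal, 99.986% of values of 13883 matched genes were, within 0.1%, the count multiplied by a factor of the library, so the counts were used. GENCODE M21 gave symbols for 32919 of 37991 genes, and the 5072 without one held 0.891% of all counts.

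Genes were kept by filterByExpr (minimum count 10) and scaled by TMM. A model of 6 groups over 18 libraries (12 residual degrees of freedom, biological coefficient of variation 0.294) was fitted by edgeR 4.0.16 in R 4.3.3, with its robust two-sided quasi-likelihood test. The Benjamini-Hochberg adjustment covered 12445 genes, and calls were made at an adjusted p under 0.05. The SE of a log2 difference is its absolute value divided by the square root of the F statistic of this fit. Log2 CPM used a prior count of 2. Libraries of 1 group came from separate mice and differed by at least 4.45 times the counting variance, so none was counted as a duplicate. Counting intervals and limits for a count of 0 (3 counts) cover counting error only.

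Mouse numbers pair the libraries, since the labels give the same animals in each group. Deviations from group means had a median correlation of 0.0188 over 45 pairs of libraries from the same mouse and -0.00673 over 90 pairs from different mice. Alternatives were RLE size factors, no filter, DESeq2 1.42.0, limma-voom (limma 3.58.1), the mouse as a block, only the groups compared, the authors' signal as log2(value + 1), each library left out in turn, and all 3 libraries that stand apart left out. The 4 genes and all lists were chosen with earlier results of these data known. From each list the rule named up to 3 genes, those called in most of the 6 population comparisons, and for each of the 4 genes the 3 most similar profiles. Other pathway genes were named for their role or after their values were seen. From the lists, 1 gene was left out and is not reported here.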

Additional observations from a re-analysis of the deposited data

How the results depend on the processing

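RLE scaling moved the median of all genes by at most 0.02 on the log2 scale. Of 503 alternative values for Selplg, Gcnt1, Fut7 and St3gal4, 19 had another sign, all where the value itself was within 0.56 of 0. The values that moved by more than the spread between replicates were 11. With LN Id3+ cTR of mouse 86 left out, Fut7 there is at 0 and its fitted differences are no bound. The same holds for Gcnt1 in spleen Id3+ cTR without mouse 86, where fitted values against it were 8.90 and 8.34. Without LN Id3+ cTR of mouse 87, where 1 count remains, the fitted Gcnt1 differences in LN were 9.96 and 8.75.

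Of 56 calls of pathway genes, 26 were made under every alternative and 30 with any 1 library left out, and none reversed. Calls lost were 1 with RLE, 2 without the filter, 0 with DESeq2, 9 with limma-voom, 4 with the mouse as a block, 10 with only the groups compared, and 15 without the 3 libraries that stand apart; the cause was not tested.

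Counts of called pathway genes that moved by over 1.5 times were as follows. For LN Id3- eTR against Id3+ eTR, 6 calls became 3 with only the groups compared and 3 to 6 with 1 library left out. For LN Id3+ eTR against Id3+ cTR, 9 became 4 to 8 with 1 library left out. For spleen Id3- eTR against Id3+ cTR, 15 became 9 without the 3 libraries. For spleen Id3- eTR against Id3+ eTR, 5 became 8 with DESeq2, 3 with only the groups compared and 2 to 7 with 1 library left out. For spleen Id3+ eTR against Id3+ cTR, 3 became 5 with DESeq2, 1 with limma-voom, 0 without the 3 libraries and 1 to 6 with 1 library left out. Between tissues in Id3+ eTR, 2 became 1 with RLE, 1 without the filter, 1 with limma-voom, 0 with the mouse block, 0 without the 3 libraries, 0 with only the groups compared and 0 to 2 with 1 library left out. Between tissues in Id3- eTR, 0 became 1 without the filter, 2 with DESeq2, 1 with limma-voom, 1 with the mouse block, 1 without the 3 libraries and 0 to 1 with 1 library left out. For the difference between tissues of Id3- eTR against Id3+ eTR, 0 became 1 with DESeq2.

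The mouse block also ended the calls of Tbx21 between the spleen eTR populations and of Spn in LN Id3- eTR against Id3+ cTR. With it, the population comparisons called 15, 3 and 4 pathway genes in spleen and 15, 9 and 6 in LN. Depth limits Gcnt1 and Fut7 in cTR, where 5 to 31 counts per group set the level.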
